A study of Mus musculus with 2 samples.

Results

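The translation initiation and elongation factors are the proteins, outside the ribosome itself, that start protein synthesis and move the ribosome along the messenger RNA. They were chosen by name, as the probes whose annotated gene symbol begins with Eif or Eef, leaving out the eIF2 alpha kinases (Eif2ak) and the sex-linked pair Eif2s3x and Eif2s3y. The rule gave 117 probes of 45281 on the array, standing for 58 genes of 19057. These fall into eIF2 (2 genes), eIF2B (5), eIF3 (12), eIF4 (15), eIF5 (4), eEF1 (9), eEF2 (3) and 8 other factors. Total RNA of femoral bone marrow from mice aged 8 days was measured on Illumina MouseWG-6 v2.0 bead arrays, 1 array labelled wild type and 1 labelled Dnmt2-/-. Dnmt2 methylates cytosine in transfer RNA, and its current symbol is Trdmt1. The labels give neither the strain nor how many animals each RNA came from, and they do not describe the mutant allele. The bone marrow label carries no cell sort, so each array is a mixture of cell types, in which fewer cells of a type and less RNA per cell cannot be told apart.

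In initiation, eIF2 brings the initiator methionyl transfer RNA to the small ribosomal subunit as a complex with GTP, and eIF2B reloads eIF2 with GTP afterwards. The eIF4 factors bind the messenger RNA cap and unwind the leader, and the large eIF3 complex is a scaffold on the scanning small subunit. At the start codon and at subunit joining, eIF5 and eIF5B act. In elongation, eEF1A delivers aminoacyl transfer RNA, the eEF1B complex recharges eEF1A, and eEF2 moves the ribosome by a codon. Red cell precursors, an abundant cell of marrow, depend on this machinery to make globin.

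Since each genotype has a single array, nothing could be tested and no value carries an error; precision is set by having 1 array each. Differences are therefore given as log2 ratios, Dnmt2-/- array divided by wild type array, after background correction and quantile normalization, and they describe these 2 arrays. Probes with a detection p-value under 0.01 are called detected, which held for 41.4% of probes on the wild type array and 43.2% on the Dnmt2-/- array. The median signal was 95.1 and 100.2 intensity units, close to the fitted background of 90.9 and 94.9. Of 16 haematopoietic markers 14 were named on the array, and all 14 were detected on both arrays. Their summed signals were 135754.7 (wild type) and 131077.9 (Dnmt2-/-). By log2 ratio 8 lay below 0 and 6 above, from Adgre1 (-0.90, 1.86-fold lower) to Klf1 (0.61, 1.52-fold higher). At 1.5-fold, 1 was higher and 1 lower, beside 7.39% and 5.95% of all genes detected on at least 1 array. The 4 probes of Trdmt1 gave signals of 84.1 to 112.4 on the wild type array and 107.6 to 148.8 on the Dnmt2-/- array, higher there in all 4. The log2 ratio was 0.62 and -0.27 for the 2 probes detected on both arrays. The other 2, with signals of 84.1 and 113.3 and of 97.1 and 118.2, were detected on the Dnmt2-/- array only. With wild type signals so close to the fitted background of 90.9, 2 of them not detected, the 4 probes cannot show whether the transcript was lost. The fitted background was itself higher on the Dnmt2-/- array, at 94.9. Where the probes lie relative to the mutation is not stated by the labels, and a probe outside the mutated stretch checks nothing. The X-linked Xist RNA had a signal of 822.7 on the wild type array and 92.8, not detected, on the other, and the Y-linked Eif2s3y had 89.8, not detected, and 466.8. Genotype label and these sex-linked transcripts cannot be told apart. Over all genes detected on both arrays 48.3% had a log2 ratio above 0, the background for the marker counts that follow. Skeletal muscle markers were higher on the Dnmt2-/- array in 9 of 9 genes, with summed signals of 4499.1 and 8500.2. Cartilage markers were higher in 7 of 7, with 1109.7 and 2808.1, and of these Col9a1 was detected on the Dnmt2-/- array only. For osteoblast markers 5 of 6 were higher, with 15045.8 and 19735.8. The part of these cells in the results below was not tested.

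The sequence before the gene start is shown for the 2 factor genes past the 1.5-fold line described below, Eef1e1 on the higher side and Eefsec on the lower, and for Eef2, just short of it on the higher side. Each stretch is the 250 bases before the RefSeq start in GRCm38.p6, 5′ to 3′ on the gene's own strand, with capitals marking an E-box (CACGTG) and a TATA box (TATAAA) in Eef2. The Eef2 stretch lies at chr10:81176381-81176630 on the plus strand, Eef1e1 at chr13:38659029-38659278 on the minus strand and Eefsec at chr6:88446540-88446789 on the minus strand.
Eef2: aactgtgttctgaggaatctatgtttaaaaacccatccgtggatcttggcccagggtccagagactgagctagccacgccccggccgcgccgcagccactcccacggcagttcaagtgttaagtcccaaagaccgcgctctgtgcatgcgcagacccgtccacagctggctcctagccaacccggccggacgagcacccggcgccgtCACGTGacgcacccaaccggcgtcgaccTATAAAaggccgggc
Eef1e1: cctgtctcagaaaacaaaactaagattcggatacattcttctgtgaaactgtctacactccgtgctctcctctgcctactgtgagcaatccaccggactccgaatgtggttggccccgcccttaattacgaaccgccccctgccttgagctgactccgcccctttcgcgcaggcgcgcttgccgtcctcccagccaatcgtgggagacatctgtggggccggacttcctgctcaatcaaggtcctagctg
Eefsec: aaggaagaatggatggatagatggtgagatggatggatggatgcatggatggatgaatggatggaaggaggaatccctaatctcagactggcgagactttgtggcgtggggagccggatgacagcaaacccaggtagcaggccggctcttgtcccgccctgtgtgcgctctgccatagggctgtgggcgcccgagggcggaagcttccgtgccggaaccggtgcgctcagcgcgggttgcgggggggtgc

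The E-box, the site read by Myc, USF and related factors, was the feature that the promoters of the factor genes shared most often among 4 motifs searched in the 250 bases on both strands. Of 58 factor genes 43 had an entry in the RefSeq promoter table, and 11 of these (25.6%) held CACGTG, against 6.86% of all 27025 genes in the table. Counted over single starts it was 13 of 57 (22.8%) against 6.02% of 32851. Among genes detected on both arrays the shares were 10 of 38 factor genes (26.3%) and 9.90% of 7901 genes. The factor promoters were also richer in G and C, with a median of 62.4% against 52.4% over all promoters and 59.2% over those of detected genes. The share was not tested, and a match is a description of letters and not a site. In Eef2 the E-box began 43 bases before the start. In 6 other factor genes it began between 24 bases (Eif1b) and 228 bases (Eif4e, at its second listed start) before the start. Each is shown with 12 bases on either side and the E-box in capitals. No full flank repeats, although Eif3f and Eif3k share the letter t before the E-box and the letters gta after it.
Eif4a1, chr11:69672595-69672624, minus strand: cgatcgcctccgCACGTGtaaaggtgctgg
Eif4e, chr3:138527028-138527057, plus strand: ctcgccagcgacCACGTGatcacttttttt
Eif4h, chr5:134639488-134639517, minus strand: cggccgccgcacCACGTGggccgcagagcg
Eif3f, chr7:108934335-108934364, plus strand: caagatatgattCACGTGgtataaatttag
Eif3k, chr7:28981915-28981944, minus strand: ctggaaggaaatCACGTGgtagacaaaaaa
Eif1b, chr9:120492570-120492599, plus strand: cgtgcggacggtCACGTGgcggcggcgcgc

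Factor genes with an E-box did not stand on one side. The 10 that were detected on both arrays had log2 ratios from -0.36 (Eif3k) to 0.58 (Eef2) and a median of 0.0, and the 28 detected genes without one had a median of 0.05. The TATA box was in 3 factor genes, 6.98% against 14.3% of all genes, and 7.89% against 8.33% among detected genes. The element TGATGNAA, which ATF4 reads, was in Eef2k alone, 2.33% against 3.91%, and 2.63% against 2.49% among detected genes. The cyclic AMP element TGACGTCA was in none (0 of 43, against 1.77%).

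As a set, the factors were close to equal on the 2 arrays. Of 58 genes 49 were detected on both arrays, 1 on the wild type array only and 8 on neither. Over the 49 the median log2 ratio was 0.02, beside -0.02 over the 9746 genes detected on both arrays. Of the 49 factor genes 26 (53.1%) lay above 0, against 48.3% of all genes. At the 1.5-fold line (log2 0.585), 1 of 50 factor genes detected on at least 1 array was higher on the Dnmt2-/- array and 1 was lower. The background over all 11438 such genes was 7.39% higher and 5.95% lower, so that 55.4% of all calls were higher. That split depended on the scaling and was 83.7% higher with median scaling. No factor gene reached 2-fold, beside 1.22% of genes higher and 0.595% lower. A difference of at least 1.2-fold either way was found for 16 of 49 factor genes, beside 44.2% of all genes.

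**Figure D1:**
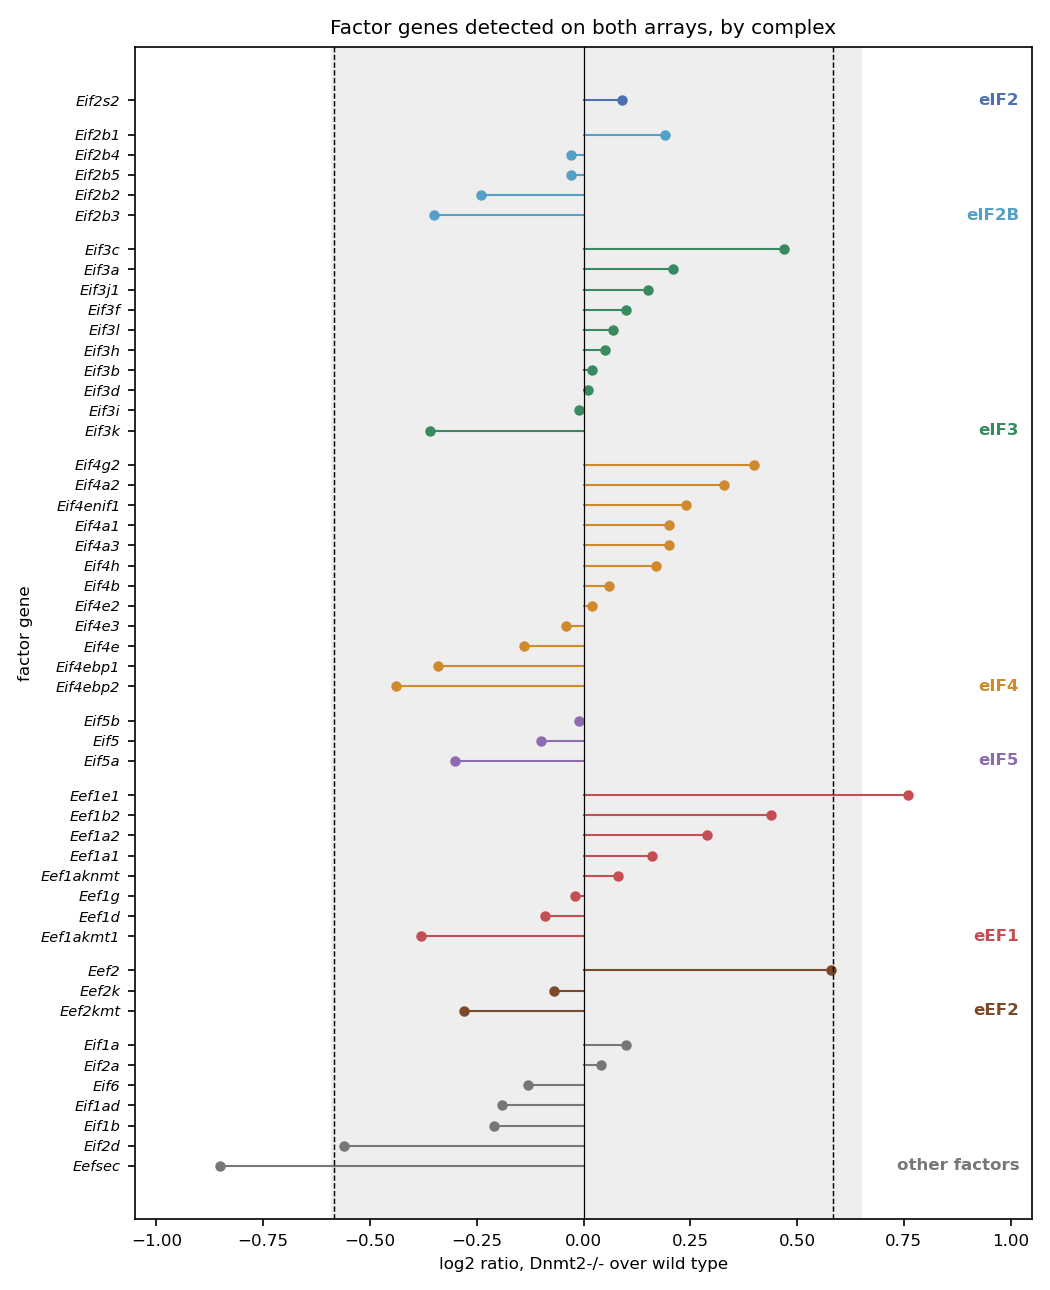
Log2 ratio of Dnmt2-/- to wild type (x axis) for the brightest probe of each of the 49 factor genes detected on both arrays (y axis), coloured by complex. The dashed lines mark 1.5-fold and the grey band runs from the 5th to the 95th percentile of all genes (-0.59 to 0.65); Eef1e1 at 0.76 and Eefsec at -0.85 are the 2 genes outside both lines.

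The spread among the factors was smaller than among all genes. Their log2 ratios had an SD of 0.29, and 5th and 95th percentiles of -0.41 and 0.46, beside 0.38, -0.59 and 0.65 over all genes. Of the 49 genes 40 fell among the brighter 4873 of all genes, where 8.50% of genes differed by at least 1.5-fold and 1 of the 40 factors did. There the SD was 0.29 for the factors and 0.34 for all genes. The dimmer 4873 genes held 9 factor genes, of which 1 passed, beside 15.0% of all genes there, with SDs of 0.33 and 0.42.

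**Figure D2:**
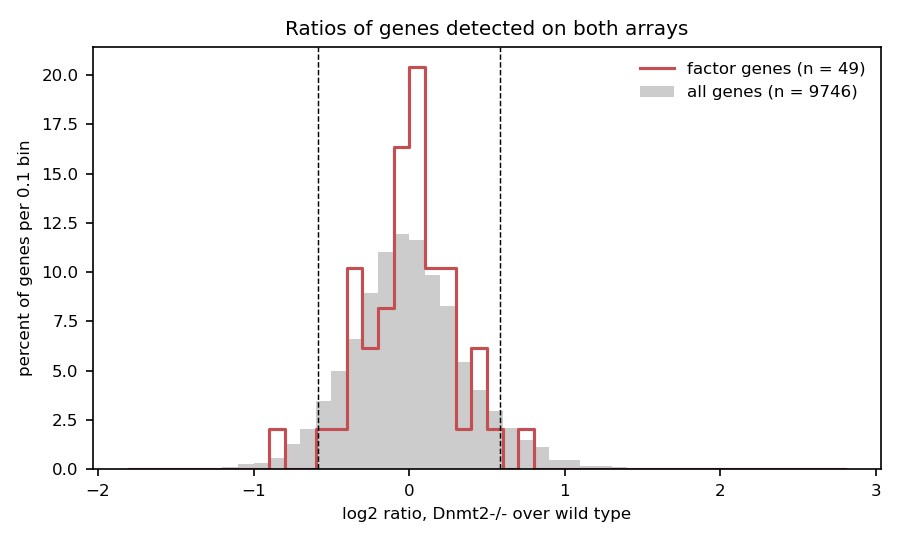
Percent of genes (y axis) in each step of 0.1 in log2 ratio (x axis, Dnmt2-/- over wild type) for the 9746 genes detected on both arrays (grey bars) and the 49 factor genes among them (red line). The dashed lines mark 1.5-fold; the factor genes crowd around 0, and 2 of them lie outside the lines.

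For eIF2 the beta subunit gene Eif2s2 was the one subunit measured. Its brighter probe gave signals of 1016.8 on the wild type array and 1203.4 on the Dnmt2-/- array, a log2 ratio of 0.09. Its dimmer probe gave 273.7 and 406.7, a log2 ratio of 0.44, so both were higher on the Dnmt2-/- array by different amounts. The alpha subunit gene Eif2s1 has no probe under that symbol in the annotation used here and was not analysed. The pseudogene Eif2s3x-ps1 was detected on neither array, with signals of 84.1 and 90.6. The gamma subunit is encoded on the X and Y chromosomes and was left out of the set for that reason. Its X copy Eif2s3x had signals of 998.1 and 746.9, a log2 ratio of -0.66. Its Y copy Eif2s3y was detected on the Dnmt2-/- array only, with 89.8 and 466.8 in 1 probe and 95.2 and 103.7 in the other. As with Xist above, genotype label and sex-linked transcripts cannot be told apart here, so neither copy gives a genotype difference in the gamma subunit.

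The eIF2B complex, the exchange factor for eIF2, had all 5 subunits detected and none past the 1.5-fold line. The lowest was Eif2b3, the gamma subunit of the catalytic part, with signals of 576.7 and 544.8 and a log2 ratio of -0.35. Its catalytic partner Eif2b5, the epsilon subunit, had 932.7 and 1027.9 and lay at -0.03, with its other 2 probes between -0.18 and -0.13. A raw signal that is a little higher on the Dnmt2-/- array can thus give a ratio near 0 after background correction and quantile normalization. With median scaling Eif2b5 lay at 0.08. Among the regulatory subunits, Eif2b2 (beta) had signals of 490.6 and 496.6 and a log2 ratio of -0.24. Eif2b4 (delta) had 851.5 and 938.5 and -0.03. Eif2b1 (alpha) lay on the other side, with 452.7 and 591.9 and a log2 ratio of 0.19, and 0.46 in its second probe. The 5 subunits thus ran from -0.35 to 0.19 with a median of -0.03, and Eif2b4 and Eif2b5 changed sign with the scaling.

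Of the 12 genes of eIF3, the scaffold of the scanning small subunit, 10 were detected, 8 of them above 0, with a median of 0.06. The highest was Eif3c, a subunit of the structural octamer, with signals of 329.4 and 503.7 and a log2 ratio of 0.47 (1.39-fold higher). Its second probe, with 261.4 and 309.7, lay at 0.01, so the difference was carried by 1 probe. Eif3a, the largest subunit, had 427.4 and 565.3 and a log2 ratio of 0.21, with 0.48 in a second, dimmer probe. Against these, Eif3k, another octamer subunit, had 1732.8 and 1472.6 and a log2 ratio of -0.36, while its second probe, with 107.9 and 121.1, lay at 0.13.

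The other detected eIF3 subunits were within 0.15 of 0 by their brightest probes. Eif3i, a WD-repeat subunit, had signals of 11004.6 and 10914.6 in its brightest probe and a log2 ratio of -0.01, with 0.06 and 0.21 in 2 others. Eif3f, a subunit of the octamer, had 10875.3 and 11391.0 and a log2 ratio of 0.10, and Eif3d, a subunit that can bind the cap itself, had 5180.9 and 5145.1 and 0.01. These 3 changed sign with the scaling. Eif3b lay at 0.02, Eif3h at 0.05, Eif3l at 0.07 and Eif3j1, a loosely bound partner, at 0.15. Eif3e (86.7 and 96.8) and Eif3m (90.6 and 97.2) were detected on neither array. Each has 1 probe, and a probe near background gives no level for a subunit. Eif3g has no probe under that symbol in the annotation used here and was not analysed.

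**Figure D3:**
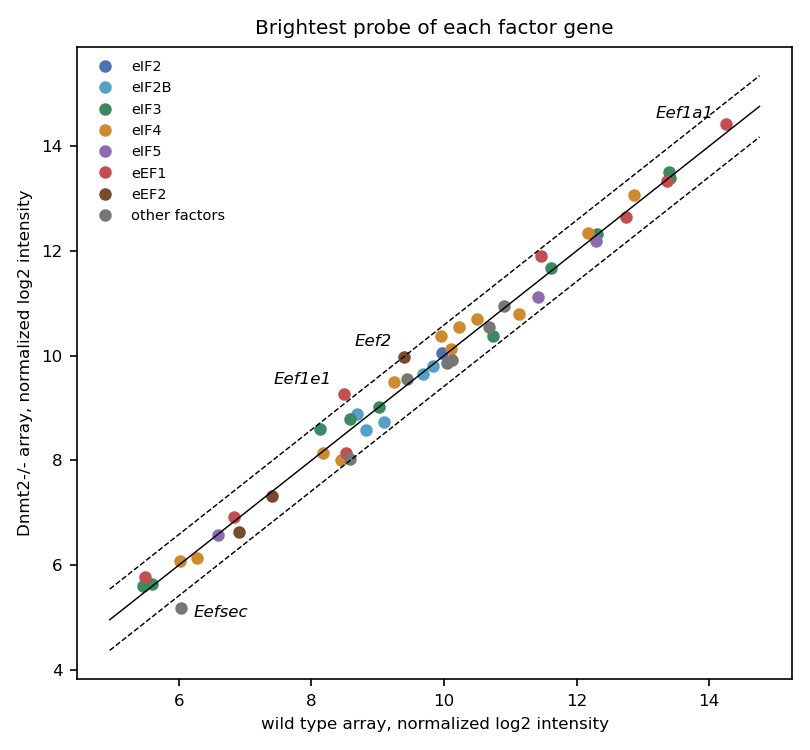
Normalized log2 intensity of the brightest probe of the 49 factor genes on the wild type array (x axis) and the Dnmt2-/- array (y axis), coloured by complex. The solid line marks equality and the dashed lines 1.5-fold; Eef1e1 lies above the upper line, Eef2 on it (log2 0.58 against 0.585) and Eefsec below the lower one.

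Within eIF4, the helicases lay above 0, the cap-binding proteins near it and the 2 detected 4E-binding proteins below it, all within 1.5-fold by their brightest probes. Of 15 genes 12 were detected on both arrays, with a median of 0.11 and 8 above 0. The scaffold gene Eif4g2 (DAP5), which lacks the site for eIF4E, had signals of 1011.0 and 1458.9 and a log2 ratio of 0.40 (1.32-fold higher). Its 2 dimmer probes gave 0.24 and -0.37. Eif4g3 had 99.9 and 89.5, was detected on the wild type array only and was at least 1.26-fold lower on the Dnmt2-/- array on the normalized scale. That bound, a log2 ratio of -0.33, shrank to -0.09 without background correction and -0.11 in the authors' values. Eif4g1, the main scaffold, has no probe under that symbol in the annotation used here and was not analysed.

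All 3 helicase genes of the eIF4A family lay above 0. Eif4a2 had signals of 1215.9 and 1633.0 and a log2 ratio of 0.33, with 0.75 in a second probe (130.0 and 194.8). Eif4a1, the helicase of the cap-binding complex, had 7584.1 and 8430.5 and a log2 ratio of 0.20, with -0.04 in its second probe. Eif4a3, which serves in the exon junction complex, had 1462.7 and 1791.8 and also 0.20. Their cofactors Eif4h (4722.3 and 5248.5) and Eif4b (132.7 and 154.6) lay at 0.17 and 0.06.

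The cap-binding proteins lay near 0. Eif4e itself had signals of 143.8 and 158.0 and a log2 ratio of -0.14, whose sign changed with the scaling. Its relative Eif4e2, a translational repressor, had 1118.8 and 1253.3 and 0.02, with -0.37 and 0.15 in 2 dimmer probes. Eif4e3 had 338.2 and 389.3 and -0.04, with the same limit, and the germ cell form Eif4e1b was detected on neither array. Eif4enif1, which carries eIF4E into the nucleus and also represses it, had 638.6 and 848.5 and a log2 ratio of 0.24, which its second probe repeated at 0.24.

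The 2 detected 4E-binding proteins, inhibitors of eIF4E, were the lowest eIF4 genes among those detected on both arrays, unlike the other repressor of eIF4E, Eif4enif1. Eif4ebp1, which mTOR inactivates by phosphorylation, had signals of 2275.8 and 1906.5 and a log2 ratio of -0.34 (1.26-fold lower on the Dnmt2-/- array). Eif4ebp2, which acts in the same way, had 391.8 and 361.6 and -0.44 (1.35-fold lower). Eif4ebp3 was detected on neither array. Over 6 settings of scaling, background correction and table, Eif4ebp1 stayed between -0.35 and -0.32 and Eif4ebp2 between -0.44 and -0.23. Both have a single probe.

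Eif4ebp1 is also known as a target of the stress transcription factor ATF4. Of 16 such genes outside the factors 14 were detected on at least 1 array. Of these 6 were at least 1.5-fold higher on the Dnmt2-/- array and 0 were that much lower, beside the background of 7.39% and 5.95%. The list was chosen with earlier results of these data known, so this count is a description and not a test. Trib3, a pseudokinase, had signals of 193.9 and 997.9 (6.46-fold higher), and Ddit3, the transcription factor CHOP, had 357.4 and 1166.0 (3.31-fold higher). Chac1, which degrades glutathione, was 3.47-fold higher, the lipoprotein receptor Vldlr 2.46-fold, the amino acid transporter subunit Slc3a2 1.65-fold and Sesn2, with signals of 97.1, not detected, and 126.8, at least 1.90-fold on the normalized scale. Slc3a2 and Sesn2 were near background, and over the 6 settings their log2 ratios reached down to 0.26 and 0.28, under the 1.5-fold line. Of the 13 detected on both arrays 5 lay below 0, the lowest being the cystine transporter Slc7a11 (log2 -0.18). The amino acid enzymes Asns (log2 0.25), Psat1 (0.01) and Phgdh (-0.04) were close to equal.

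The eIF5 genes lay at or below 0 in their brightest probes. Eif5, which triggers GTP hydrolysis by eIF2, had signals of 5120.8 and 4737.3 and a log2 ratio of -0.10, and its 2 other probes lay at -0.08 and -0.07. Eif5b, the GTPase of subunit joining, had 160.4 and 186.2 and -0.01, with the sign depending on the scaling. Eif5a, the factor that carries the amino acid hypusine and helps the ribosome through hard peptide bonds, had 3 bright probes that did not share a direction. The brightest gave 2786.4 and 2349.4, a log2 ratio of -0.30. The others gave 1874.8 and 2460.6 (0.34) and 1879.4 and 2257.4 (0.19). Its paralogue Eif5a2 was detected on neither array.

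**Figure D4:**
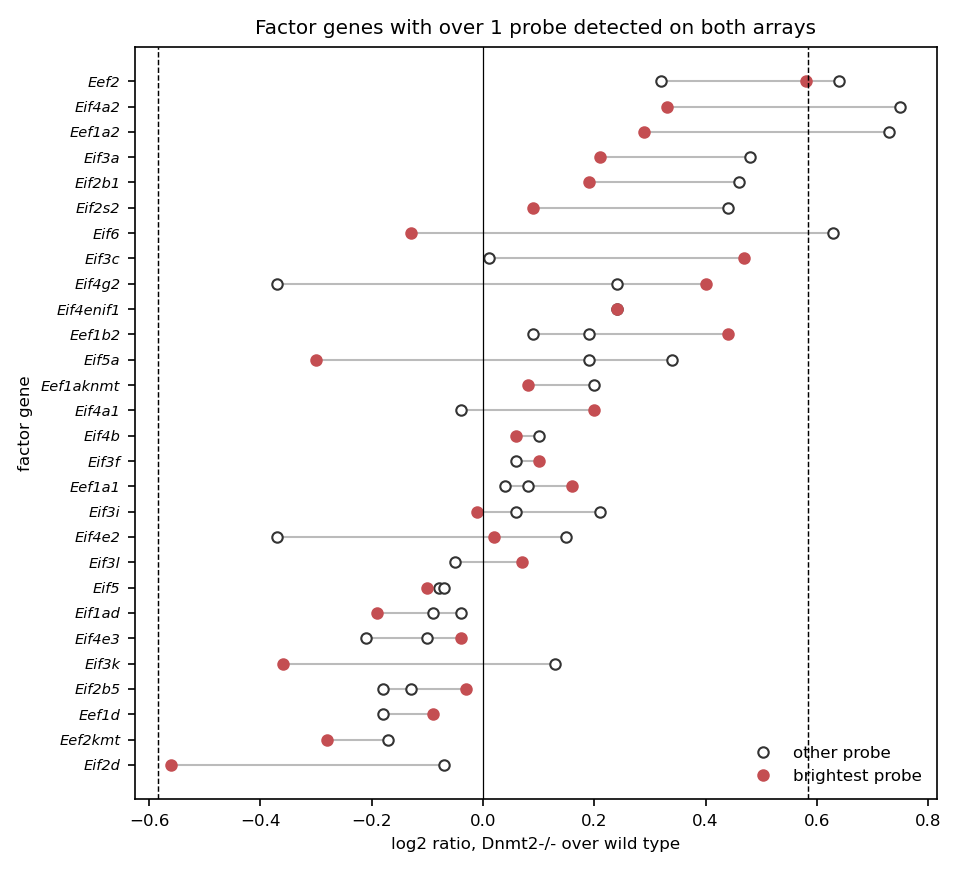
Log2 ratio (x axis, Dnmt2-/- over wild type) of every probe detected on both arrays for the 28 factor genes with over 1 such probe (y axis), with the brightest probe filled and the others open. The dashed lines mark 1.5-fold; in 8 genes, among them Eif5a, Eif4g2 and Eif6, the probes lie on both sides of 0, and the 3 probes of Eef2 all lie to the right of it.

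How far probes of the same gene differ sets the size that can be read from a single probe. Over the 28 factor genes with over 1 detected probe the log2 ratios had an SD of 0.22 between probes of a gene, beside 0.29 over 3375 genes. In 20 of the 28 all probes lay on the same side of 0. The 8 others were Eif3i, Eif3k, Eif3l, Eif4a1, Eif4e2, Eif4g2, Eif5a and Eif6. Of all 49 genes, 35 had a log2 ratio within 0.29 of 0. This spread measures probes on the same 2 arrays and not animals. The mouse reference lists pseudogenes of Eef1a1, Eef2, Eif4a and Eif5a, and cross-hybridisation was not tested.

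The highest of all factor genes was Eef1e1, also known as AIMP3, a small protein of the aminoacyl-tRNA synthetase complex that resembles the eEF1B subunits. Its 1 probe gave signals of 403.3 on the wild type array and 737.9 on the Dnmt2-/- array, a log2 ratio of 0.76 (1.70-fold higher). It ranked 303 from the top among 9746 genes detected on both arrays, and ran from 1.58-fold to 1.91-fold higher over the 6 settings. No other factor gene passed the 1.5-fold line on this side, although Eef2 lay next to it.

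Among the core genes of the eEF1 complex, Eef1a1, Eef1d and Eef1g were close to equal and Eef1b2 was higher on the Dnmt2-/- array. Eef1a1, the main carrier of aminoacyl transfer RNA, had signals of 19891.1 and 21333.1 and a log2 ratio of 0.16, with 0.08 and 0.04 in its 2 other probes. These signals are near the top of the arrays, whose highest values were 25571 and 22805, and a ceiling there was not tested. The exchange subunits Eef1d (6888.7 and 6486.4) and Eef1g (10657.3 and 10421.9) lay at -0.09 and -0.02, the second on either side of 0 with the scaling. A dimmer probe of Eef1d (134.0 and 143.9) gave -0.18. Eef1b2, a catalytic exchange subunit, had 2862.2 and 3872.4 and a log2 ratio of 0.44 (1.36-fold higher). A second probe with nearly the same signal (3015.2 and 3517.1) gave 0.19, and the dimmest 0.09, so all 3 were higher on the Dnmt2-/- array.

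Eef1a2 is the form of eEF1A that muscle and neurons use. Its brightest probe gave signals of 115.9 and 139.7, a log2 ratio of 0.29, and a second gave 99.6 and 125.8, a log2 ratio of 0.73. The skeletal muscle markers, listed above as higher in 9 of 9 genes, had a median log2 ratio of 0.89, with 8 of 9 at least 1.5-fold higher, against the background of 7.39%. Muscle actin Acta1 had signals of 1239.5 and 1972.7. For neurons 4 of 6 markers were detected on at least 1 array, and Snap25 and Nefl were not detected. At 1.5-fold 0 were higher and 1 was lower, Map2, with signals of 116.2 and 107.7. Map2 was near background and ran from -0.72 to -0.23 over the 6 settings. The summed signals of the 6 were 580.0 and 614.3, and since all were near background these sums are mostly background. The part of muscle and neurons in the Eef1a2 value was not tested.

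Enzymes that modify eEF1A stayed near 0 or below it. Eef1akmt1, a lysine methyltransferase of eEF1A, had signals of 412.5 and 391.1 and a log2 ratio of -0.38 (1.30-fold lower). Eef1aknmt, which methylates the N-terminus and a lysine of eEF1A, had 177.0 and 215.0 and 0.08, with 0.20 in its second detected probe. Eef1akmt2 was detected on neither array.

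Eef2, the translocase of elongation, was higher on the Dnmt2-/- array in all 3 of its probes. The brightest gave signals of 698.8 on the wild type array and 1148.3 on the Dnmt2-/- array, a log2 ratio of 0.58, just short of the line at 0.585. The others gave 311.9 and 525.8 (0.64) and 518.6 and 732.2 (0.32). By its brightest probe it ranked 655 from the top of 9746 genes and ran from 1.43-fold to 1.64-fold higher over the 6 settings, past the line with median scaling and with cyclic loess. The kinase that inhibits it, Eef2k, had 225.4 and 259.0 and -0.07, with the sign depending on the scaling. Eef2kmt, which methylates a lysine of eEF2, had 181.9 and 190.0 and -0.28, with -0.17 in its second probe.

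Among the other factors 5 of 7 detected genes lay below 0, with a median of -0.19. The lowest factor gene of all was Eefsec, the elongation factor that delivers selenocysteine. Its detected probe gave signals of 133.3 on the wild type array and 117.8 on the Dnmt2-/- array, a log2 ratio of -0.85 (1.81-fold lower). It ranked 107 from the bottom of 9746 genes. Both signals were close to background, and over the 6 settings the difference ran from 1.26-fold to 1.81-fold lower, under the 1.5-fold line without background correction, with the larger offset and in the authors' processed values.

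Eif2d, which helps to recycle the small subunit and to restart initiation, came next, with signals of 428.4 and 367.8 and a log2 ratio of -0.56 (1.47-fold lower). Its second probe, with 143.8 and 162.0, lay at -0.07. Eif1b, a close relative of the start codon factor eIF1, had 1128.6 and 1096.7 and -0.21. Eif1ad, a protein related to eIF1A, had 1077.8 and 1061.7 and -0.19, with its other 2 probes at -0.09 and -0.04. Eif6, which keeps free large subunits from joining, had 1670.6 and 1636.6 and -0.13, while its dimmer probe (101.0 and 125.1) lay at 0.63. Eif1a, which helps the scanning ribosome to find the start codon, had 719.9 and 884.0 and a log2 ratio of 0.10. Eif2a, an alternative carrier of the initiator, had 1938.4 and 2119.7 and 0.04. Eif1ax, the X-linked form of eIF1A, was detected on neither array, and Eif1 has no probe under that symbol in the annotation used here and was not analysed.

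**Figure D5:**
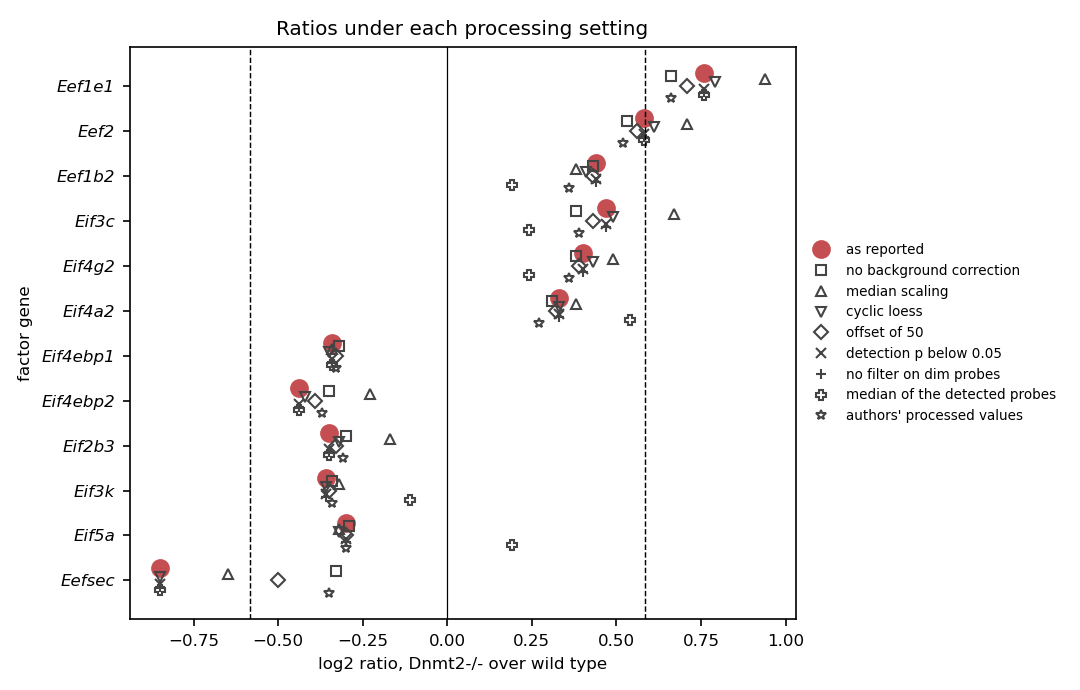
Log2 ratio (x axis, Dnmt2-/- over wild type) of 12 factor genes (y axis) as reported (large red points) and under 8 other settings (dark symbols, small offsets on the y axis only for legibility). The dashed lines mark 1.5-fold; Eef1e1 stays to the right of its line in every setting, Eefsec crosses its line in 3, and Eif5a lies on the other side of 0 when the median of its probes is used.

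By the brightest probe, direction held for most factor genes when the processing changed. Over the 6 settings of scaling, background correction and table, which all read that probe, 39 of the 49 genes kept their sign, 24 above 0 and 15 below. The 10 that did not were Eef1g, Eef2k, Eif2b4, Eif2b5, Eif3d, Eif3f, Eif3i, Eif4e, Eif4e3 and Eif5b, whose log2 ratios as reported lay between -0.14 and 0.10. Among the genes that kept it, Eif3k, Eif3l, Eif4a1, Eif4e2, Eif4g2, Eif5a and Eif6 have detected probes on both sides of 0. With the median of its probes Eif5a lay at 0.19 in place of -0.3. Over the 88 factor probes detected on both arrays, the log2 ratios used here and those from the authors' processed values correlated at Pearson r = 0.948, a description across probes that share the same 2 arrays.

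Lists of genes that work beside the factors are read against the same background, 7.39% of all genes past the line on the higher side and 5.95% on the lower. Of the 8 genes of termination, ribosome recycling and rescue, all were detected and none passed the line, with a median of 0.08, from Abce1, the recycling ATPase (-0.16), to Denr, a re-initiation factor (0.43). The 10 mitochondrial translation factors had none past the line either, with a median of 0.05 among the 9 detected on both arrays, from the initiation factor Mtif3 (-0.31) to the elongation factor Gfm1 (0.39). Of the 8 poly(A) binding proteins and partners none passed, with a median of 0.25, from Paip2, an inhibitor of poly(A) binding protein (-0.17), to Larp4b (0.39). Of 5 helicases none passed, with a median of -0.10, from Ddx6, a helicase of messenger RNA decay (-0.48), to Dhx33 (0.40).

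The regulators of cap binding held 2 genes past the line, both lower on the Dnmt2-/- array and both known as brakes on mTOR complex activity. Akt1s1 (PRAS40) had signals of 308.2 and 257.5 (log2 -0.69, 1.61-fold lower) and Tsc1 had 138.0 and 129.9 (-0.61, 1.53-fold lower). Over the 6 settings Akt1s1 ran from -0.69 to -0.45 and Tsc1, which was near background, from -0.61 to -0.26. Both were thus under the 1.5-fold line in some settings. Of the other regulators, Deptor (117.7 and 120.0) lay at -0.31 and Tsc2 (926.0 and 1022.8) at -0.03. The highest of the 12 detected genes was Rheb, the GTPase that activates mTOR, with 690.0 and 1123.0 (0.57), and the median was 0.02, with Mtor itself at -0.22. The count of 0 higher and 2 lower stands beside the background of 7.39% and 5.95%.

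Among 9 enzymes of hypusine and diphthamide, the modified residues of eIF5A and eEF2, 7 were detected, of which 1 was past the line on the higher side and 0 on the lower, beside 7.39% and 5.95% of all genes. Dph2, of the first step of diphthamide synthesis, had signals of 170.9 and 276.2 (log2 0.71, 1.64-fold higher), and ran from 0.46 to 0.97 over the 6 settings. Dhps, which starts hypusine synthesis, was the lowest, with 279.3 and 269.4 (-0.41), and Dohh, which completes it, had 113.8 and 115.7 (-0.31). The median of the list was -0.20.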

How the data were processed

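RNA was extracted with Trizol and hybridised as biotin-labelled cRNA, per the labels' protocols. The deposited non-normalized table holds linear intensities, 1 for each probe on each array. It also holds a deposited detection p-value for each, and each p-value column was matched to the array whose intensity it followed (rank correlation -0.994 and -0.994). The authors' normalized intensities stand in another deposited table, whose method is not stated by the labels or headers, with medians of 101.8 and 101.1, and 1071 probes blank. Its values follow the same array's signal in rank (rank correlation at least 0.9998), which does not show the scale. From medians of that size the scale was read as linear and uncentred, and the table served as an alternative.

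Using limma 3.58.1 (R 4.3.3), normexp background correction with parameters from the detection p-values and an offset of 16 was followed by log2 and quantile normalization. Offset and background shrink folds, most for dim probes. A gene was represented by its brightest probe. Where it was detected on 1 array, the dimmer value was raised to the lowest detected value if it was below it. Symbols came from the platform annotation, which names 1 gene for 34885 probes, several for 18 and none here for 10378. The mouse reference (GRCm38.p6) held the IDs of all 58 factor genes, and promoters are RefSeq's. No test could be run. The background correction and quantile normalization were tested on simulated data, with changes planted in 200 bright probes. Dim probes, the bounds and the choice of probe were not covered.

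The members and lists were chosen with earlier results of these data known. Named genes were those past 1.5-fold, the highest and lowest of each complex and list, the brightest of each complex, all subunits of eIF2, eIF2B and eEF1, and paralogues of the main factors. Others, such as Eif2d, Eif6 and the remaining eIF3 and eIF4 genes, complete the set. In the lists, Ddit3, Asns, Psat1, Phgdh, Acta1, Dohh, Mtor, Deptor and Tsc2 were named after their values were seen.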

Additional observations from a re-analysis of the deposited data

How the results depend on the processing

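The 8 alternatives were no background correction, median scaling, cyclic loess, an offset of 50, a detection limit of 0.05, no filter, the median of a gene's detected probes, and the authors' processed values. Factor genes at least 1.5-fold higher numbered 1 as reported, 3 with median scaling (Eef1e1, Eef2 and Eif3c) and 2 with cyclic loess (Eef1e1 and Eef2). The count lower was 1 as reported and 0 without background correction, with an offset of 50 and in the authors' values. Over all 11438 genes the counts were 845 higher and 680 lower as reported, 192 and 106 if background was left in, 1591 and 309 with median scaling, 311 and 194 with an offset of 50, and 225 and 121 in the authors' values. The median over all factor genes ran from 0.01 to 0.09. Median scaling put all genes at 0.14 and the factors at 0.09, which is -0.06 relative to all genes, whereas it was 0.03 as reported. It also moved the median of eIF2B to 0.08 and of eEF2 to 0.19. The median of the probes moved eIF2, a single gene, to 0.27 and the other factors to -0.09. Of 296 values of 37 single genes, 292 moved by no more than 0.29, the spread between probes over all genes, and 0 reversed a call. Part of this was fixed in advance. The detection limit and the filter cannot change the ratio of a gene detected on both arrays. The median of the probes cannot change that of a gene with 1 detected probe. Only Eef1e1 and Eefsec stood past the 1.5-fold line as reported and had a call to reverse. The 4 that moved were Eefsec at -0.33, -0.5 and -0.35 in the 3 settings that lost it, and Eif5a at 0.19. The cause was not tested. Signals near background limit Eefsec, Eef1a2, Eif4g3 and Tsc1. No paired analysis was possible because each group holds 1 array.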
